A study of Mus musculus with 6 samples.

Results

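Imprinted genes are transcribed mainly or only from the chromosome inherited from 1 parent. The members were the 34 rows of the deposited expression table whose gene name is on a list of imprinted genes, out of 23511 entries with an mRNA length. All 34 were found, in 15 imprinted regions. RNA had been sequenced from 3 pools of carotid body, the chemosensory organ at the carotid bifurcation, and from 3 pools of adrenal medulla, whose chromaffin cells release catecholamines. All pools came from untreated adult C57/BL6 mice. A pool took tissue from 10 mice, as 18 carotid bodies or 10 adrenal medullas, so n counts pools. The strain is inbred and reads were not assigned to alleles, so the parental origin of a transcript is background knowledge here and was not measured. The sex of the mice is not stated in the labels.

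In many imprinted regions, DNA methylation laid down in the egg or the sperm marks a control element, and the mark decides which chromosome expresses which gene. Regions often pair a protein-coding gene expressed from the paternal copy with a noncoding RNA expressed from the maternal copy, or the reverse. Many of the proteins act on growth: Igf2 is a growth factor, Igf2r clears it, Grb10 damps the receptors it signals through, and Cdkn1c stops the cell cycle. Of the 34 members, 21 are known as paternally expressed and 11 as maternally expressed, with Ube3a counted as maternal from its expression in neurons. For Gnas and Grb10 the expressed parent depends on the tissue or the transcript.

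The regions of Dlk1 and Igf2 held 6 of the 10 members called as different between the tissues, and the sequences shown are from those regions. The promoter windows reach from 250 bases before to 50 bases after an annotated start, in RefSeq on GRCm38.p6. Capitals mark TGCCGC on either strand, the letters that ZFP57, a protein that protects imprinting marks, recognises when they are methylated.
Dlk1, chr12:109452573-109452872, plus strand: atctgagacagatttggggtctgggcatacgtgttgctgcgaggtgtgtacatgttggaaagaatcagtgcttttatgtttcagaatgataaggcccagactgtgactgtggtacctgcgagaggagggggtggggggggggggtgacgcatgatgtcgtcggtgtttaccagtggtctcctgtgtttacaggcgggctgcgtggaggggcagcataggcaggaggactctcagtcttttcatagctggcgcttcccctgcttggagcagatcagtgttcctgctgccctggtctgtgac
Meg3, chr12:109540746-109541045, plus strand: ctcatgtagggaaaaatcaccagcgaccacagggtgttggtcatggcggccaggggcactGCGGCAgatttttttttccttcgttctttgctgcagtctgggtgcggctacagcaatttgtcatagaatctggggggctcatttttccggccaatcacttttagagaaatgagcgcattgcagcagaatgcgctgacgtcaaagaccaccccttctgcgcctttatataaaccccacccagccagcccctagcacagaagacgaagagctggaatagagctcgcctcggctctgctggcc
Igf2, chr7:142661222-142661521, minus strand: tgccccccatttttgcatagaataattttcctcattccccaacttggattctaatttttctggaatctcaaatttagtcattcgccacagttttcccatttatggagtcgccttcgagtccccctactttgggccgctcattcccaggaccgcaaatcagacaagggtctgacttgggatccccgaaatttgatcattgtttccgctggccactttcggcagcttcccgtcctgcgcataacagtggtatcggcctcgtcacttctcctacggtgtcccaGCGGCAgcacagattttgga
The Meg3 and Igf2 windows shown were picked because they held the motif, in 1 place each, so its presence there is not a result. The Dlk1 window was shown regardless of the motif and did not hold it. RefSeq lists further windows for Meg3 and Igf2, of which none held the motif. For members, but not for the comparison with all windows, 1 chromosome was left out, and windows were counted for 28 of the 34 members. The motif was in 9 of their 44 windows, and in 11.6% of all 32851 windows of the same length. CG dinucleotides had a median of 11.5 per window over the members and of 7 over all windows. A match of letters is a description and does not show a binding site.

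Several members are also the primary transcripts of microRNAs. Only hairpins on the strand of the host were counted, and Rtl1 was not searched as a host. RefSeq places 10 such microRNA hairpins inside Mirg, 3 inside Rian, and 1 each inside Meg3, H19, Igf2, Mest and Usp29. The mature sequences of some of them follow, with the seed, bases 2 to 8, in capitals. They are shown because their hosts differed between the tissues.
miR-770-5p (Meg3): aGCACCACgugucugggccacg
miR-770-3p (Meg3): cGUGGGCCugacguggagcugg
miR-370-3p (Rian): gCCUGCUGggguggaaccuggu
miR-410-3p (Mirg): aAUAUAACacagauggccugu
miR-453 (Mirg): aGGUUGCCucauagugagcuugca
miR-496a-5p (Mirg): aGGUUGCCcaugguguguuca
miR-675-5p (H19): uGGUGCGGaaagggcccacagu
miR-675-3p (H19): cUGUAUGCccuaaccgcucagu
miR-483-3p (Igf2): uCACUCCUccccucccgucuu
miR-483-5p (Igf2): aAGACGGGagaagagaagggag
The seed GGUUGCC was shared by miR-453 and miR-496a-5p, and no other seed occurred more than once among the mature forms of the hairpins counted. The libraries were made from RNA amplified from its poly(A) tail, so they measured the host transcripts and not the mature microRNAs.

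Levels are given in RPKM, reads scaled to the length of the mRNA and the depth of the library. Library depth, recovered from the values, was 13266225 to 16445925 reads. Log2 differences were taken on log2(RPKM + 1) with the adrenal medulla subtracted from the carotid body, and for genes of low level they come out too small. A gene was called where limma's adjusted p lay under 0.05. Libraries were from whole tissue, and fewer cells of a type and less RNA per cell cannot be told apart. All 12 tested adrenal cortex markers were lower in the carotid body, with summed levels of 105 to 219 RPKM per pool against 14015 to 18176 in the adrenal medulla, so the libraries labelled adrenal medulla also held cortex transcripts. All 10 fibroblast markers were higher in the carotid body, at 2454 to 3143 RPKM summed against 75.6 to 185, as were 9 of 10 smooth muscle and pericyte markers, 9 of 9 tested glial markers and 7 of 10 endothelial markers. Of 13 chromaffin and glomus cell markers, 1 was higher and 8 were lower in the carotid body. The 9 tested adipocyte markers were not called, and their summed level spanned 458 to 3897 RPKM in the carotid body and 266 to 2378 in the adrenal medulla. Leukocyte markers gave 3 calls of 7, all higher in the carotid body, and neuronal markers gave 3 higher and 1 lower of 10. No marker on these lists was at 0 in all 3 pools of a tissue. The part of these cell types in the differences between imprinted genes was not tested.

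Of the 34 members, 23 reached 1 RPKM in at least 3 libraries and were tested. Of these, 4 were higher and 6 were lower in the carotid body by limma, and 13 were not called. Over all 13357 genes tested, 21.9% were called, 14.2% higher and 7.73% lower in the carotid body. The 3 and 3 pools did not overlap for 5 members with the carotid body above and 7 with it below, and over all genes tested this held for 37.0%, with 22.3% above and 14.7% below. The median absolute log2 difference was 0.81 over the tested members, which is the value of Zrsr1, a gene that was not called, and 0.36 over all genes tested. The members also varied more between pools of a tissue, with a median within-tissue SD of 0.405 on the log2 scale against 0.307 over all genes tested. H19 passed the filter only through the carotid body pools and Slc38a4 only through the adrenal medulla pools, so these 2 genes had to differ in order to pass. Without the filter, both were still among 19505 genes tested and were called.

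**Figure D1:**
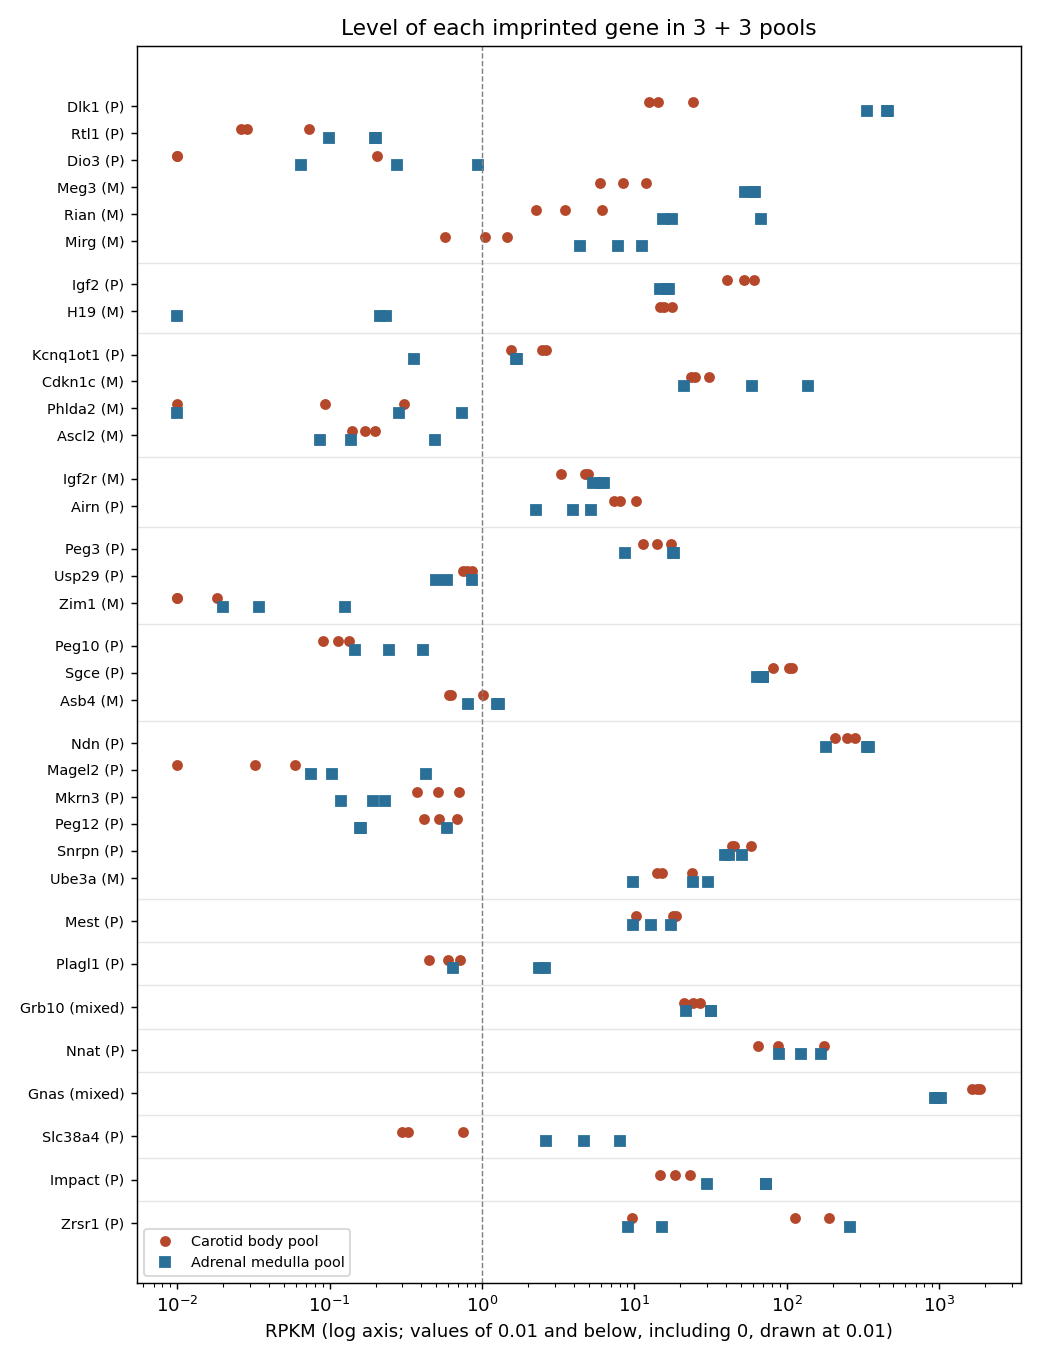
RPKM of the 34 imprinted genes on a log axis, with carotid body pools as circles above adrenal medulla pools as squares, grouped by imprinted region; P and M mark paternally and maternally expressed genes, and the dashed line is 1 RPKM. The 3 pools of each tissue stand apart for Dlk1, Meg3, Rian, Mirg, Igf2 and H19, while Zrsr1 spreads widely within both tissues.

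The Dlk1-Dio3 region was lower in the carotid body in every one of its 4 tested members, from both parental copies. Dlk1, the paternally expressed ligand of this region, is a membrane protein related to the Notch ligand Delta, and in adrenal glands it has been described in chromaffin tissue and, in rats, in the outer cortex. It stood at 12.4, 14.3 and 24.0 RPKM in carotid body pools 1, 2 and 3, against 335, 452 and 463 RPKM in adrenal medulla pools 1, 2 and 3. The groups lay far apart, with the lowest adrenal medulla pool well above the highest carotid body pool. The log2 difference was -4.58 ± 0.29 (SE, limma adjusted p = 2.22e-05), the lowest of all tested members, and it ranged between -4.85 and -4.40 over 14 alternative settings.

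Meg3, Rian and Mirg are noncoding RNAs from the maternal copy of the same region and lie in a row, with Rian hosting small nucleolar RNAs as well. Meg3 was at 11.9, 5.96 and 8.47 RPKM in the carotid body pools and at 53.4, 61.9 and 60.0 RPKM in the adrenal medulla pools. The adrenal medulla pools were close together, and all were above the carotid body pools (log2 -2.65 ± 0.26, limma adjusted p = 1.74e-04). Rian was at 2.27, 3.51 and 6.15 RPKM in the carotid body pools, against 17.6, 67.2 and 15.5 RPKM in the adrenal medulla pools. Adrenal medulla pool 2 was several times above the other adrenal pools, but the groups did not overlap (log2 -2.54 ± 0.54, limma adjusted p = 0.00960). The call of Rian was lost without carotid body pool 1 (log2 -2.28, limma adjusted p = 0.0505). Mirg, at 1.05, 0.573 and 1.47 RPKM in the carotid body pools against 4.41, 11.2 and 7.77 RPKM in the adrenal medulla pools, rested on 10 to 30 reads in each carotid body pool. Its groups did not overlap either (log2 -2.06 ± 0.32, limma adjusted p = 0.00188).

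The partners did not keep the same proportion in the tissues. Meg3 was at 0.964, 0.418 and 0.352 times the level of Dlk1 in carotid body pools 1, 2 and 3, and at 0.160, 0.137 and 0.129 times it in the adrenal medulla pools. All carotid body ratios were above all adrenal medulla ratios, so Dlk1 was lower in the carotid body by more than Meg3 was. Rian over Meg3 overlapped between tissues, with 0.190 to 0.726 in the carotid body and 0.258 to 1.08 in the adrenal medulla. The remaining coding genes of the region were barely read. Rtl1, a retrotransposon-derived gene that acts in the placenta, had 2, 2 and 6 reads in the carotid body pools and 7, 15 and 17 in the adrenal medulla pools. Dio3, which inactivates thyroid hormone, had 0, 0 and 6 reads in the carotid body pools and 7, 25 and 2 in the adrenal medulla pools. The span of Rtl1 overlaps those of Meg3 and Rian, and the labels do not say whether strand was kept, so its few reads are uncertain.

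Igf2 and H19 neighbour each other and share enhancers, with Igf2 read from the paternal and H19 from the maternal copy. Both were higher in the carotid body. H19, a noncoding RNA that is abundant before birth, was at 17.5, 14.8 and 15.7 RPKM in the carotid body pools, from 514 to 665 reads each. In the adrenal medulla pools it was at 0, 0.214 and 0.233 RPKM, from 0, 8 and 10 reads. H19 was thus steady in the carotid body and close to the limit of detection in the adrenal medulla (log2 3.89 ± 0.20, limma adjusted p = 1.11e-05). With a pseudocount of 0.1 RPKM in place of 1, the log2 difference of H19 became 6.20.

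Igf2 was at 60.6, 40.6 and 52.1 RPKM in the carotid body pools and at 14.7, 16.4 and 16.9 RPKM in the adrenal medulla pools. Its lowest carotid body pool was well above its highest adrenal medulla pool (log2 1.60 ± 0.22, limma adjusted p = 0.00107). The deposited value merges all transcripts of Igf2, so its promoters were not separated. H19 was at 0.289, 0.365 and 0.301 times the level of Igf2 in the carotid body pools, against 0, 0.0131 and 0.0138 times in the adrenal medulla pools. Most markers of fibroblasts, smooth muscle and pericytes, glia and endothelium were higher in the same carotid body libraries, as given above. Their part in the levels of Igf2 and H19 was not tested.

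**Figure D2:**
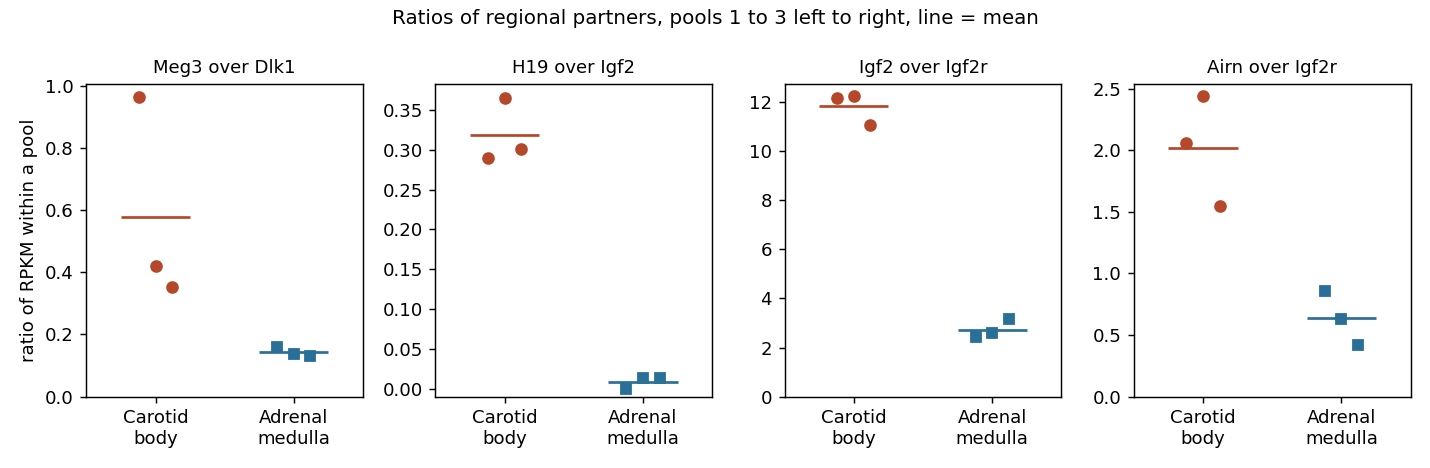
Ratio of the RPKM of regional or pathway partners within each pool, carotid body (circles) left of adrenal medulla (squares), pools 1 to 3 in order and a line at the mean. In each ratio the carotid body pools lie above the adrenal medulla pools, as at 11.1 to 12.3 against 2.44 to 3.16 for Igf2 over Igf2r.

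The IGF2 receptor gene was not called. Igf2r, a maternally expressed receptor that takes IGF2 into lysosomes, was at 4.98, 3.31 and 4.71 RPKM in the carotid body pools and 6.03, 6.31 and 5.35 RPKM in the adrenal medulla pools. The groups did not overlap, but the difference was small (log2 -0.38 ± 0.22, limma adjusted p = 0.274). Igf2 was at 11.1 to 12.3 times the level of Igf2r in the carotid body pools and at 2.44 to 3.16 times it in the adrenal medulla pools. Airn, the paternally expressed noncoding RNA that starts inside Igf2r and silences the paternal copy of it, was at 10.2, 8.08 and 7.30 RPKM in the carotid body pools and 5.16, 3.96 and 2.26 RPKM in the adrenal medulla pools. Its groups did not overlap and it was called higher in the carotid body (log2 1.03 ± 0.28, limma adjusted p = 0.0295). The call of Airn was lost under 6 of 14 alternatives, with adjusted p-values of 0.00921 to 0.109 over all of them, among them leaving out carotid body pool 1, 2 or 3 (limma adjusted p = 0.109, 0.0687 and 0.0602) and leaving out adrenal medulla pool 2 (0.0746). Airn and Igf2r overlap, and without strand their reads may have been mixed.

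Among other genes of IGF and Notch signalling, from a list of 20, 8 of the 15 that could be tested were called by limma, all with the carotid body above, and 7 were not called. Of all 13357 genes tested, 14.2% were called higher and 7.73% lower in the carotid body. The median log2 difference of the list was 1.26, against 0.02 over all genes tested. The growth factor gene Igf1 averaged 16.1 ± 5.73 RPKM in carotid body pools and 3.37 ± 0.790 RPKM in adrenal medulla pools (SD, n = 3). The IGF-binding protein genes Igfbp3, Igfbp4, Igfbp5, Igfbp6 and Igfbp7 were among the 8, with Igfbp6 at 360 ± 114 against 7.41 ± 4.61 RPKM (log2 5.59, limma adjusted p = 1.03e-04). The receptor genes Notch1 (log2 1.26) and Notch3 (1.51) were higher in the carotid body, where Dlk1 was lower. Notch3 is also on the smooth muscle and pericyte list, of which 9 of 10 were higher in these libraries.

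Gnas encodes the stimulatory G protein subunit that couples receptors to adenylyl cyclase, together with other products from its own promoters that the deposited value merges. It had the highest level of all members, at 1780, 1634 and 1860 RPKM in the carotid body pools and 933, 1034 and 969 RPKM in the adrenal medulla pools. The pools of a tissue agreed within a narrow range and the groups did not overlap (log2 0.84 ± 0.25, limma adjusted p = 0.0419). The call was not stable: with pool number as a replicate block the adjusted p was 0.0573, and it was lost under 9 of 14 alternatives, with adjusted p-values of 0.0265 to 0.160 over all of them. Leaving out carotid body pool 1 or 3 gave limma adjusted p-values of 0.0955 and 0.160, and leaving out adrenal medulla pool 1, 2 or 3 gave 0.137, 0.142 and 0.0634. Its within-tissue SD, 0.0856 on the log2 scale, was smaller than that of nearly all genes tested, of which 1.88% had a smaller one.

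Slc38a4, a paternally expressed amino acid transporter of liver and placenta, was at 0.298, 0.748 and 0.327 RPKM in the carotid body pools and at 4.69, 8.03 and 2.64 RPKM in the adrenal medulla pools. The carotid body values rested on 17 to 39 reads and lay below all adrenal medulla values (log2 -1.99 ± 0.32, limma adjusted p = 0.00224). Impact, a paternally expressed inhibitor of the translation kinase GCN2 that is abundant in neurons, was at 14.7, 23.2 and 18.3 RPKM in the carotid body pools and at 72.8, 73.4 and 29.9 RPKM in the adrenal medulla pools. The groups did not overlap, but adrenal medulla pool 3 was much nearer to the carotid body pools than the other adrenal pools were (log2 -1.51 ± 0.37, limma adjusted p = 0.0181). The call of Impact was lost on leaving out carotid body pool 1 or 3 (limma adjusted p = 0.0797 and 0.0563) or adrenal medulla pool 1 or 2 (0.0537 and 0.0709), and without adrenal medulla pool 3 the difference was -1.93.

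**Figure D3:**
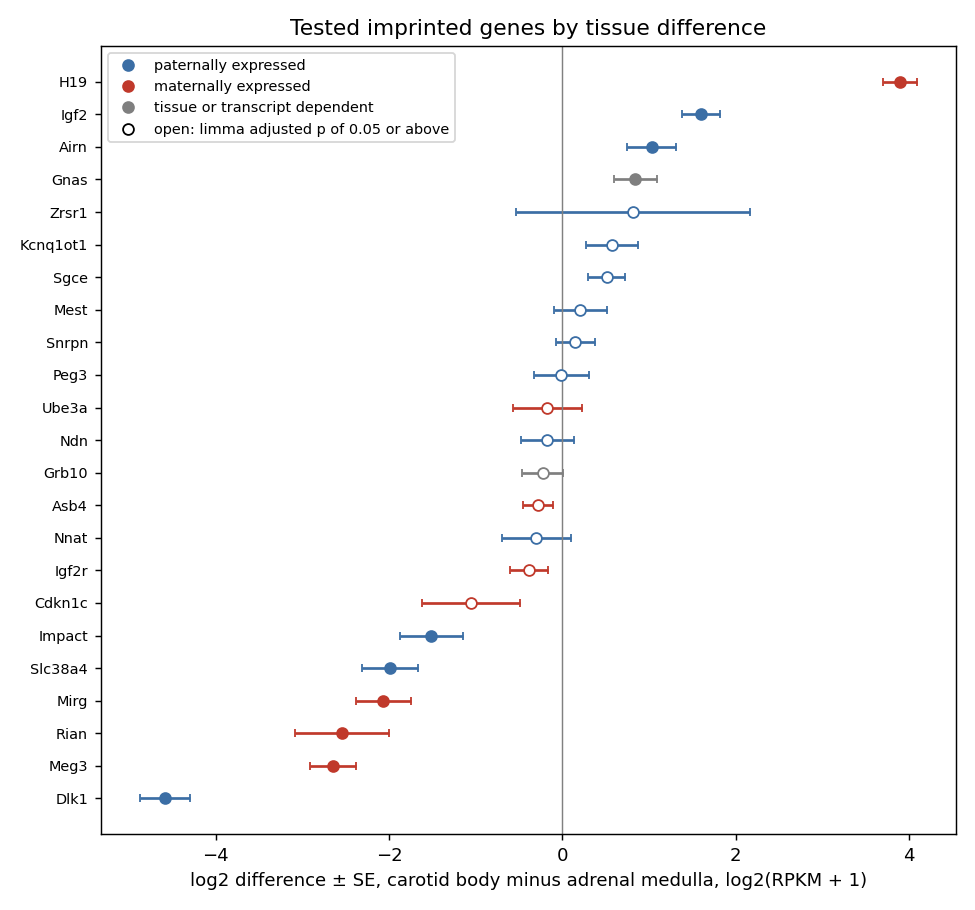
Log2 difference of the 23 tested imprinted genes with its SE, carotid body minus adrenal medulla, ordered from highest to lowest and coloured by expressed parent; filled points were called by limma. H19 (3.89) and Igf2 (1.60) head the plot and Dlk1 (-4.58) stands lowest, followed by Meg3, Rian, Mirg and Slc38a4, whose order depends on the pseudocount: with 0.1 RPKM, Slc38a4 (-3.18) lies below Rian (-2.81), Mirg (-2.79) and Meg3 (-2.77).

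The 13 members not called included some of the most abundant. Ndn, a growth-restraining MAGE family protein of neurons in the Prader-Willi/Angelman region, was at 207, 281 and 249 RPKM in the carotid body pools and 344, 337 and 180 RPKM in the adrenal medulla pools. Snrpn, which encodes a neuronal splicing protein in the same region, was at 43.8, 45.1 and 58.1 RPKM in the carotid body pools against 41.9, 50.6 and 39.3 RPKM in the adrenal medulla pools. Both overlapped between tissues, with log2 differences of -0.17 ± 0.31 for Ndn and 0.15 ± 0.22 for Snrpn, whose reads may include those of the overlapping Snurf. Ube3a, the ubiquitin ligase lost in Angelman syndrome, was at 15.1, 23.7 and 14.0 against 30.5, 24.0 and 9.84 RPKM, with adrenal medulla pool 3 the lowest of all. It was called when carotid body pool 2 and adrenal medulla pool 3 were both left out (log2 -0.85, limma adjusted p = 0.0309).

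Sgce, the epsilon-sarcoglycan gene mutated in myoclonus-dystonia, was at 81.7, 104 and 109 RPKM in the carotid body pools against 69.6, 69.7 and 64.0 RPKM in the adrenal medulla pools. All its carotid body pools lay above the adrenal medulla pools, but it was not called (log2 0.52 ± 0.21, limma adjusted p = 0.132). Peg10, which shares a start region with Sgce and is needed in the placenta, stood at 0.0903 to 0.135 RPKM in the carotid body and 0.146 to 0.409 in the adrenal medulla, far under its neighbour in both tissues. Nnat, a small membrane protein of the endoplasmic reticulum, was at 64.6, 88.1 and 175 RPKM in the carotid body pools and 88.9, 169 and 124 RPKM in the adrenal medulla pools. Its groups overlapped over most of their range (log2 -0.30 ± 0.39), and it overlaps Blcap.

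Grb10 was at 24.1, 26.8 and 21.0 RPKM in the carotid body pools against 31.7, 32.0 and 21.8 RPKM in the adrenal medulla pools. Peg3, a zinc finger protein, was at 17.4, 14.1 and 11.3 against 18.2, 18.0 and 8.61 RPKM, and Mest, a hydrolase-like protein of growing mesoderm, at 10.2, 17.9 and 18.8 against 12.8, 17.3 and 9.73 RPKM. The groups overlapped for all 3 genes, with log2 differences of -0.23 for Grb10, -0.012 for Peg3 and 0.21 for Mest. Kcnq1ot1, the long paternal RNA that silences Cdkn1c on its own chromosome, was at 2.65, 2.49 and 1.54 RPKM in the carotid body pools and 1.70, 1.67 and 0.356 RPKM in the adrenal medulla pools (log2 0.57 ± 0.30, limma adjusted p = 0.226). It lies within Kcnq1 and its reads may include that gene's, at 0.821 to 1.26 RPKM in the carotid body and 0.916 to 2.11 in the adrenal medulla. Asb4, an adaptor of ubiquitin ligases, reached 1 RPKM in 3 libraries in all, carotid body pool 2 and adrenal medulla pools 1 and 2. It was at 0.629, 1.01 and 0.606 RPKM in the carotid body pools against 1.25, 1.30 and 0.814 RPKM in the adrenal medulla pools.

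Set side by side by expressed parent, 13 paternally expressed members were tested and 2 were higher (Igf2, Airn) and 3 lower (Dlk1, Slc38a4, Impact) in the carotid body by limma. Of 8 tested maternally expressed members, 1 was higher (H19) and 3 were lower (Meg3, Rian, Mirg). H19 and Slc38a4 had passed the filter through 1 tissue only. The median log2 difference was 0.15 for the paternally expressed, with 7 of 13 above 0, and -0.72 for the maternally expressed, with 1 of 8 above 0. Over all 13357 genes tested, 21.9% were called, 6907 were above 0 and the median was 0.02. The difference between the classes was not tested, and 3 of the 8 maternally expressed genes are neighbours in 1 region. By region, the paternal and maternal transcripts of Dlk1-Dio3 were lower together and those of Igf2-H19 were higher together. Igf2r and Airn had differences of opposite sign, of which Airn's was called, as had Cdkn1c and Kcnq1ot1, of which neither was called.

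The other 11 members stayed below the filter, with 10 to 549 reads each over all 6 libraries. They were Rtl1, Dio3, Phlda2, Ascl2, Usp29, Zim1, Peg10, Magel2, Mkrn3, Peg12 and Plagl1. Plagl1, a zinc finger gene also called Zac1, was the 1 among them to reach 1 RPKM in any library, at 0.601, 0.714 and 0.450 RPKM in the carotid body pools and 2.58, 2.35 and 0.645 RPKM in the adrenal medulla pools. Its adrenal medulla pool 3 was within the carotid body range. Mkrn3, a ubiquitin ligase gene linked to the timing of puberty, was at 0.511, 0.705 and 0.376 RPKM in the carotid body pools and 0.232, 0.191 and 0.119 RPKM in the adrenal medulla pools. It had 19, 24 and 15 reads in the carotid body pools against 8, 7 and 5 in the adrenal medulla pools. With no filter on low values it was the 1 of these 11 genes called (log2 0.37, limma adjusted p = 0.0364), where 17.0% of 19505 genes were called. The placental growth regulators Phlda2 and Ascl2 had 16 and 30 reads in all.

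Some members varied more between pools of a tissue than between tissues. Zrsr1, a paternally expressed gene without introns that is related to the splicing factor U2AF and lies inside Commd1, was at 113, 190 and 9.61 RPKM in carotid body pools 1, 2 and 3, and at 260, 15.1 and 9.14 RPKM in adrenal medulla pools 1, 2 and 3. It was high in 3 libraries, taken from both tissues, and low in the other 3, with 672 to 15701 reads behind the values. The highest pool exceeded the lowest 19.8 times within the carotid body and 28.5 times within the adrenal medulla, and only 7 of the 13357 genes tested had a larger within-tissue SD. Commd1, its host, stayed at 108 to 117 RPKM in the carotid body and 88.4 to 97.2 in the adrenal medulla. Its log2 difference between tissues, 0.81 ± 1.35 for Zrsr1, was not called and became -0.0055 on leaving out carotid body pool 2 and -0.080 on leaving out adrenal medulla pool 3.

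Cdkn1c, the maternally expressed inhibitor of cyclin-dependent kinases, was steady in the carotid body pools at 30.9, 25.1 and 23.4 RPKM, against 58.7, 21.0 and 138 RPKM in the adrenal medulla pools. The adrenal medulla pools lay on both sides of the carotid body pools (log2 -1.06 ± 0.57, limma adjusted p = 0.245). Without adrenal medulla pool 2, Cdkn1c was called (log2 -1.74, limma adjusted p = 0.0183).

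Adrenal medulla pool 3 stood apart in several members. It was the lowest of the 3 adrenal medulla pools for 15 of the 23 tested members, or 65.2%, and for 52.3% of all genes tested. The count was 10 of 13 for paternally and 4 of 8 for maternally expressed members. Its level was 0.410 times the mean of adrenal medulla pools 1 and 2 for Impact, 0.361 times for Ube3a and 0.211 times for Kcnq1ot1, where the median over all genes tested was 0.864, and 3.46 times for Cdkn1c. This pool also had 0 RPKM of the Y-linked gene Eif2s3y, against 12.1 to 22.6 RPKM in the carotid body pools and 28.4 and 31.7 RPKM in the other adrenal pools, and it had 4.80 RPKM of Xist where no other library exceeded 0.992. Carotid body pool 2 held 338 RPKM of the fat gene Adipoq, against 26.7 and 53.0 in the other carotid body pools. The part of these features in the members' values was not tested.

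**Figure D4:**
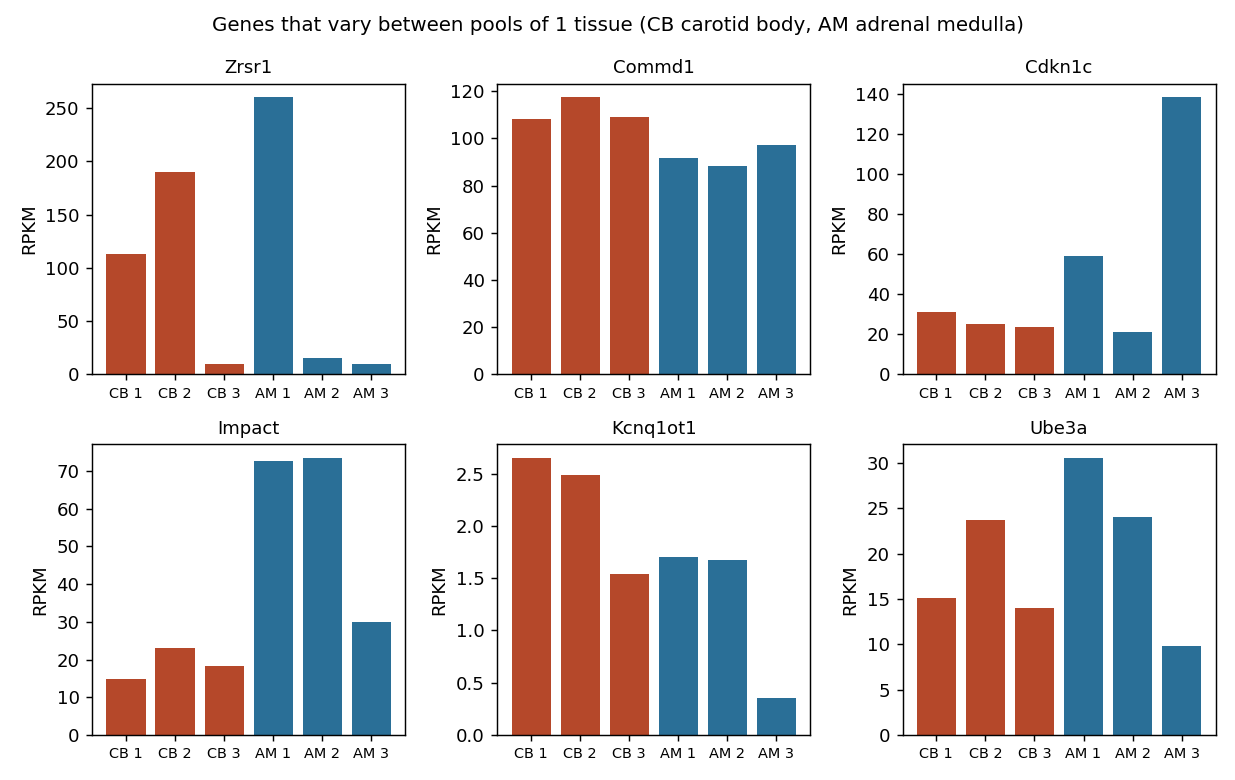
RPKM per library of 5 imprinted genes and of Commd1, the host of Zrsr1, carotid body pools (CB) left of adrenal medulla pools (AM). Zrsr1 is between 9.14 and 260 RPKM across the libraries while Commd1 stays between 88.4 and 117, and adrenal medulla pool 3 is the lowest for Impact within its tissue and for Kcnq1ot1 and Ube3a among all 6, and the highest for Cdkn1c.

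Genes that set or keep imprinting marks were compared from a list of 21. Among the 16 tested, 1 was higher and 1 was lower in the carotid body by limma, and 14 were not called, with a median log2 difference of 0.20. The share called over all 13357 genes tested was 21.9%. Dnmt3l, a cofactor of the DNA methyltransferases that set imprints in germ cells, was at 0.113, 0.124 and 0.0702 RPKM in the carotid body pools, against 12.4, 13.6 and 24.1 RPKM in the adrenal medulla pools (log2 -3.95 ± 0.26, limma adjusted p = 2.71e-05). It was nearly unread in all carotid body pools and passed the filter only through the adrenal medulla pools, so it had to differ in order to pass. With no filter, limma's adjusted p for Dnmt3l was 2.70e-04. Ctcfl, the germ cell relative of the insulator protein CTCF, was at 5.01, 2.60 and 2.99 RPKM in the carotid body pools and 1.23, 1.92 and 1.61 RPKM in the adrenal medulla pools (log2 0.78, limma adjusted p = 0.0487), and its call was lost with no filter (adjusted p = 0.0832).

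A further list held 63 genes reported as imprinted in some tissue, many of them only in the placenta, or lying beside such genes. Limma called 11 higher and 6 lower in the carotid body among the 43 tested, and the median log2 difference was 0.04. The shares over all 13357 genes tested were 14.2% higher and 7.73% lower. Nap1l5, a paternally expressed gene without introns, was at 43.0, 59.6 and 44.1 RPKM in the carotid body pools and 156, 183 and 72.5 RPKM in the adrenal medulla pools (log2 -1.38 ± 0.36, limma adjusted p = 0.0238). As for Impact, its groups did not overlap and adrenal medulla pool 3 was the lowest adrenal pool. Mcts2, a paternally expressed translation factor gene inside H13, was at 14.2 ± 1.42 against 36.8 ± 1.59 RPKM (SD, n = 3; log2 -1.32), and Rasgrf1, paternally expressed in brain, was at 0.114 ± 0.155 against 2.09 ± 0.774 RPKM (log2 -1.45). Rasgrf1 passed the filter only through the adrenal medulla pools, so it had to differ in order to pass, and with no filter its limma adjusted p was 0.00331. The lowest log2 difference of the list was that of Dhcr7, which makes the last step of cholesterol synthesis, at 3.42 ± 0.344 RPKM in carotid body pools and 55.6 ± 5.09 in adrenal medulla pools (log2 -3.68). Pon3 (log2 -1.86) and Th (-1.61) were the other lower genes. The 11 higher genes were headed by Dcn, a matrix proteoglycan that is also on the fibroblast list, at 1850 ± 227 RPKM in carotid body pools and 79.4 ± 51.0 in adrenal medulla pools (log2 4.74). Dlx5, a homeobox gene, followed (log2 3.66), then Gatm, an enzyme of creatine synthesis (3.13), Gab1, a signalling adaptor (2.25), and Ddc, an enzyme of catecholamine synthesis (1.78). The others were Slc22a2, Osbpl5, Ano1, Pde4d, Cobl and Tnfrsf26, with log2 differences of 0.56 to 1.54. Dlx5, Slc22a2 and Tnfrsf26 passed the filter only through the carotid body pools. With no filter, the calls of Pon3 (limma adjusted p = 0.0772) and Ano1 (0.0608) were lost. Th and Ddc are also on the list of chromaffin and glomus cell markers. A last list held 15 genes that are not known as imprinted. Of these, 11 were tested and 3 were higher in the carotid body by limma (Lsp1, Tnni2, Map3k4), as were 14.2% of all genes tested. The other 8 were not called, and the median log2 difference was 0.04.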

How the data were processed

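RNA was measured in 6 pooled libraries. Per the labels' protocols, total RNA was purified, amplified with the Amino Allyl MessageAmp II kit, fragmented and sequenced. Reads were aligned with Bowtie 0.9.8 to mm9, per the submitters' processing notes, and the counting tool and strand are not given in the sources used here. The authors' deposited table holds RPKM values for 23511 of 26728 entries. The other 3217 have no mRNA length, hold raw counts and were left out. RPKM times length was a whole multiple of the value of 1 read, within 0.01, for every value above 0 in each library. Such read numbers measure precision and cover counting error only.

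limma 3.58.1 in R 4.3.3 was fitted to log2(RPKM + 1) with a variance trend over 13357 genes of at least 1 RPKM in at least 3 libraries, with two-sided Benjamini-Hochberg adjusted p-values and 8.47 degrees of freedom. It was tried on simulated read counts with planted differences, the same relative spread for every gene and independent pools. The real pools need not meet this setting, so the trial does not vouch for the calls. The labels do not say whether pools of the 2 tissues came from the same mice, and p-values measure only the spread between these pools. The Y-linked gene Eif2s3y was at 12.1 RPKM in carotid body pool 3 and at 0 RPKM in adrenal medulla pool 3. The pools numbered 3 were therefore not from the same set of mice. Deviations of same-numbered carotid body and adrenal medulla pools from their tissue means correlated at 0.259, 0.128 and 0.473 across genes for pools 1, 2 and 3. Carotid body pool 2 correlated with adrenal medulla pool 1 at 0.291, above the same-numbered values of pools 1 and 2. The correlations thus do not establish a pairing, and pool number was fitted as a replicate block only among the alternatives. Members, lists and tests were chosen with earlier results of these data known. All 34 members could be named, with values in every library for those called under any setting or reaching 10 RPKM in either tissue, and of other lists the called genes. Sequences, overlaps and strands come from RefSeq and GENCODE on GRCm38, a later build than mm9. Tables and plots used Python 3.11.15, pandas 2.3.3, numpy 2.4.6 and matplotlib 3.10.9.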

Additional observations from a re-analysis of the deposited data

How the results depend on the processing

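Among the members' log2 differences under the alternatives, 286 kept their direction and side of the threshold, 20 lost a call, 3 gained one and 9 changed sign. Dlk1, Meg3, Mirg, Igf2, H19 and Slc38a4 stayed called under all alternatives in which they were tested. The sign changed for Zrsr1 (-0.90), and Mest (-0.094) when the second carotid body pool and the third adrenal medulla pool were both left out, and, leaving out 1 library, for Peg3 (range -0.34 to 0.16), Ube3a (-0.63 to 0.14), Nnat (-0.70 to 0.013) and Zrsr1 (-0.080 to 2.26), none of them called. Quantile scaling called Asb4 (-0.52, limma adjusted p = 0.0342). Leaving out 1 library gave 2 to 3 members called higher, with 2 in the absence of adrenal medulla pool 2 or of carotid body pool 1 or 3, and 4 to 6 lower. It gave 1 to 2 paternally expressed members higher, with 1 on leaving out any carotid body pool or adrenal medulla pool 2, and 4 to 9 of the control and further imprinted genes lower, with 4 on leaving out carotid body pool 1. Paternally expressed members called higher numbered 1 with both of those pools left out. A filter of 5 RPKM left 6 control and further imprinted genes higher, and 1103 genes higher and 632 lower in all; without those 2 pools together 2067 genes were lower. The cause of these shifts was not tested. Fewer genes were tested under the stricter filter. The share of calls that were higher in the carotid body was 64.7% with all libraries, 55.0% under quantile scaling and 48.3% without the 2 pools together. The replicate block ended the call of Gnas (limma adjusted p = 0.0573) and changed no other call of a member. Members under 1 RPKM rested on few reads, and differences there were often not detectable at this depth.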
